A study of Caenorhabditis elegans with 15 samples.

Results

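Adult Caenorhabditis elegans labelled as lacking both gld-2 and parn-1 were compared with adults labelled as lacking gld-2 alone. The comparison takes 6 of the 15 RNA sequencing libraries of the series, 3 of the double knock-out of gld2 and parn1 (gld2-parn1) and 3 of the knock-out of gld2 (gld2), and describes all genes. Libraries were assigned by the genotype in their labels and by no measured value, and both groups carry the gld-2 knock-out. The alleles are not named. RNA came from whole worms picked by hand 24 h after the middle of the fourth larval stage, was extracted with Trizol, depleted of ribosomal RNA with a mammalian (human, mouse and rat) kit, and turned into strand-specific libraries. The other 9 libraries, 3 each of the double knock-outs gld2-ccr4 and gld2-ccf1 and of wild type (wt), entered the same fit and serve to show where gld2-parn1 differed from them. Nothing in the labels says that replicates came from separate cultures, so the p-values measure the spread between these samples, which may be technical.

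GLD-2 is a cytoplasmic poly(A) polymerase that lengthens the poly(A) tails of germline mRNAs and thereby promotes their stability and translation. PARN-1 is a deadenylase, an enzyme that shortens RNA from its 3′ end. In C. elegans it is known for trimming the precursors of piRNAs, small RNAs that guide the Piwi protein PRG-1 to silence foreign and selfish sequences in the germline. By its title the study asks how enzymes that add and remove poly(A) act together in early oogenesis.

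The libraries held 36.6, 35.9 and 34.7 M counts in gld2-parn1 and 39.4, 36.4 and 36.2 M counts in gld2, replicates 1 to 3. Nuclear ribosomal RNA took 1.98%, 1.85% and 6.80% of the counts in gld2-parn1 and 1.85%, 1.74% and 4.30% in gld2, so replicate 3 stood apart in both groups. Mitochondrial genes took 8.65%, 9.08% and 6.87% in gld2-parn1 and 6.64%, 6.43% and 7.86% in gld2, a mean difference of 1.22 percentage points (exact permutation test, two-sided p = 0.2). With 3 libraries against 3 that test cannot give a p below 0.1.

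The targeted genes came first. Levels are CPM, counts per 1000000 of the scaled library size, and are shown for replicates 1 to 3. The gene parn-1 (WBGene00010734, WBcel235 chromosome V, 12692486 to 12695255) stood at 62.2, 64.3 and 55.2 CPM in gld2-parn1, against 55.4, 48.1 and 48.4 CPM in gld2. The highest gld2 library lay just above the lowest gld2-parn1 library, and the difference, 0.26 ± 0.09 on the log2 scale (SE), did not pass the test (adjusted p = 0.0887). Counts over the whole gene therefore do not check the label, since a knock-out that removes part of a gene can leave its RNA. The groups are called by their labels throughout. The gene gld-2 (WBGene00001596, chromosome I, 6369748 to 6386194) stood at 46.5, 52.95 and 61.2 CPM in gld2-parn1 and 52.95, 54.6 and 53.5 CPM in gld2, which on the log2 scale is 0.00 ± 0.17 (SE, adjusted p = 0.992). Both groups were below wt (211 ± 32.1 CPM, mean ± SD, n = 3). The deadenylase genes ccr-4 and ccf-1 had log2 fold changes of 0.01 and -0.29 (adjusted p = 0.976 and 0.739).

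Equal numbers of genes were higher and lower in gld2-parn1. Of 16888 genes tested with edgeR's quasi-likelihood test, 827 were higher and 827 lower at a Benjamini-Hochberg adjusted p under 0.05, which is 9.79% of the genes in all and 4.90% in each direction. A fold change of at least 2 was reached by 320 of the higher and 256 of the lower genes. The median log2 fold change of all tested genes was 0.02. At an unadjusted p under 0.05, 4208 genes passed. The libraries of the groups did not overlap for 3064 genes that were higher (18.1%) and 2710 that were lower (16.0%) in gld2-parn1.

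The split between higher and lower genes depended on the scaling. With scaling factors taken from muscle, intestinal, neuronal and col collagen genes only, the median of all genes was -0.32, 290 genes were higher and 3899 lower, and 6.92% of the called genes were higher in place of 50%. In the main fit these 4 lists had medians of 0.45, 0.14, 0.36 and 0.53, and they were written with earlier results known. A lower median over all genes therefore follows from this choice of reference. Without replicate 3 of both groups, the libraries with more than 4% nuclear ribosomal RNA, 238 genes were higher and 302 lower. Whole worms were sequenced, so fewer cells of a type and less RNA per cell cannot be told apart in any of these values.

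**Figure D1:**
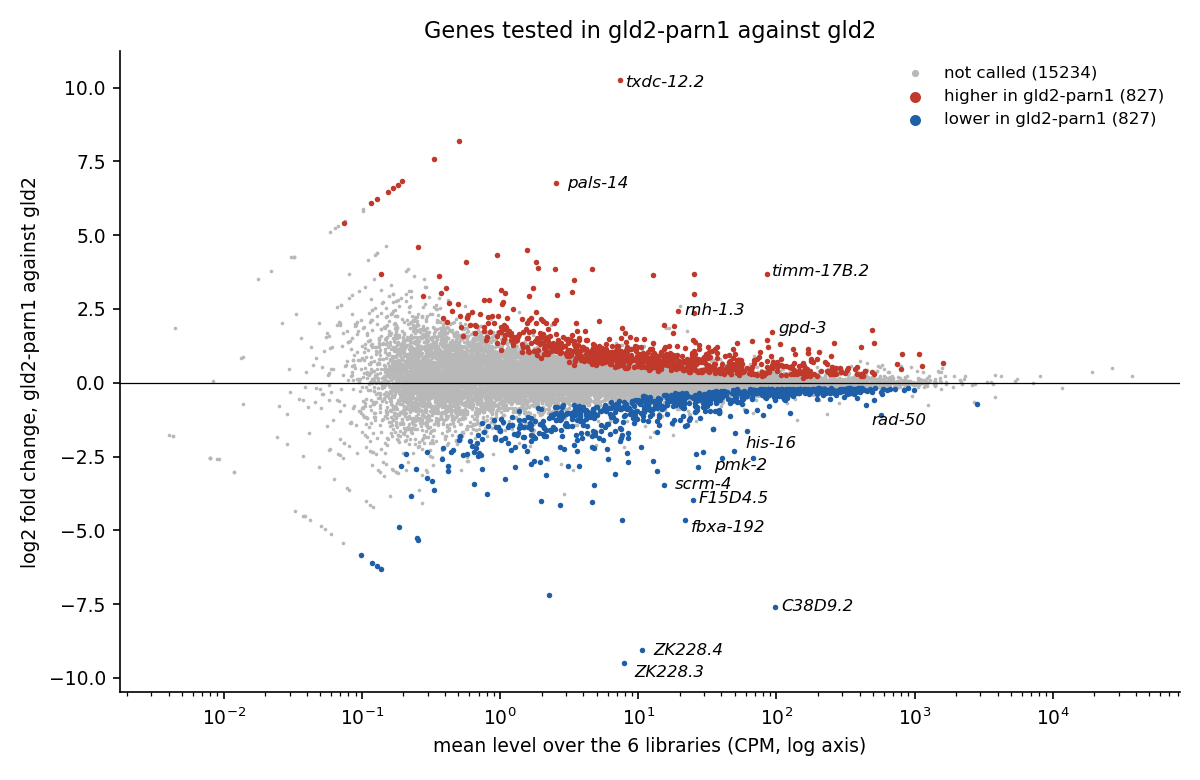
Level against change for the 16888 tested genes: the x axis is the mean CPM over the 6 libraries on a log axis, the y axis the log2 fold change of gld2-parn1 against gld2, and colours mark the 827 genes called higher (red) and the 827 called lower (blue). Named genes at the top and bottom, such as txdc-12.2, ZK228.3 and C38D9.2, lie far from the cloud, while most called genes changed by less than 2-fold.

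The largest falls among genes averaging at least 5 CPM over the 6 libraries were in neighbours on chromosome V. ZK228.3 (WBGene00013946, chromosome V, 18458241 to 18461250) and ZK228.4 (WBGene00013947, 18462787 to 18465426) were nearly silent in gld2-parn1 and active in every other genotype. ZK228.3 had 0, 2 and 0 counts in gld2-parn1 and 676, 540 and 617 in gld2. ZK228.4 had 0, 4 and 0 counts in gld2-parn1 and 883, 854 and 755 in gld2. The ratio of the scaled counts was 862.5 for ZK228.3 (95% exact counting interval 238.4 to 7127) and 586.3 for ZK228.4 (228.7 to 2154), lower in gld2-parn1. PCR copies are not independent molecules, so the intervals hold for counting error alone. The adjusted p was 1.27e-12 for both. In CPM, ZK228.3 averaged 16.4 ± 1.53 in gld2-ccr4, 15.9 ± 3.37 in gld2-ccf1 and 12.3 ± 1.26 in wt (SD, n = 3), and the fits of gld2-parn1 against each of those genotypes passed as well (adjusted p = 3.26e-12, 7.44e-13 and 2.83e-13).

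Elsewhere on chromosome V 5 neighbouring genes fell. The F-box gene fbxa-192 (WBGene00010212, chromosome V, 17640672 to 17650527) stood at 1.181, 1.46 and 2.35 CPM in gld2-parn1 and 43.5, 40.2 and 42.0 CPM in gld2 (log2 fold change -4.66, SE 0.18, adjusted p = 1.27e-12). The groups were far apart and replicate 3 was the highest of the gld2-parn1 libraries. On either side, the pseudogenes F57G4.4, F59A1.9 and F59A1.8 had log2 fold changes of -4.03, -2.68 and -1.82. The outermost, the F-box gene fbxa-108, had 11.97, 15.1 and 12.8 CPM in gld2-parn1 against 32.4, 25.6 and 29.3 in gld2 (log2 fold change -1.13, SE 0.12). F-box proteins are the substrate-binding part of ubiquitin ligases, and the fbxa family has many similar members, so reads shared between copies are uncertain. All 5 were also lower in gld2-parn1 than in gld2-ccr4 and in gld2-ccf1, with adjusted p between 4.52e-13 and 0.000656.

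Genes in a block at the left end of chromosome X all had lower values in gld2-parn1. All 33 tested genes between the first annotated gene at base 261 and Y108F1.3, which starts at 257329, had negative log2 fold changes. Of these, 22 were called lower, beside 4.90% of all tested genes. The median of the 33 was -1.89, with single values from -5.44 to -0.46. The summed level of the block was 28.3, 37.0 and 74.9 CPM in gld2-parn1, against 180.4, 177.0 and 197.4 CPM in gld2. Replicate 3 of gld2-parn1 was higher than the others of its group and still below every gld2 library. The block held 18 pseudogenes, 12 protein-coding genes and 3 genes of other classes. The window of 260 kb was chosen after the values were seen.

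Both protein-coding genes and pseudogenes of the block were among the called. The protein-coding gene chkr-1 (WBGene00011612) stood at 1.36, 1.59 and 5.12 CPM in gld2-parn1 and 13.8, 13.9 and 14.2 CPM in gld2 (log2 fold change -2.39, SE 0.35, adjusted p = 0.000653). The gene tmed-12, named for a family of cargo proteins of early secretory vesicles, stood at 1.42, 1.91 and 3.35 CPM in gld2-parn1 and 6.85, 6.86 and 8.84 CPM in gld2 (log2 fold change -1.76, SE 0.26). The pseudogene T08D2.3 was at 0.997, 1.01 and 2.29 CPM in gld2-parn1 and 11.9, 11.01 and 13.3 CPM in gld2 (log2 fold change -3.08). For each of these genes replicate 3 was the highest gld2-parn1 library and no library overlapped with gld2. The most abundant gene of the block, Y73B3A.1, ran from 1.81 to 17.5 CPM in gld2-parn1, against 24.2 to 32.7 CPM in gld2, and did not pass (adjusted p = 0.168).

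Past the block fewer genes were called. Of the next 24 tested genes up to 500 kb, 15 had negative log2 fold changes, 5 were called lower and 1 higher, and their median was -0.19. The count of lower genes there was still above the share of all genes called lower in this comparison, 4.90%. Windows of the same length at the other 11 chromosome ends had medians from -0.14 to 0.30 and from 0 to 5 genes called lower. Set against other genotypes, the X block had medians of -1.53 for gld2-parn1 against gld2-ccr4 (19 lower), -1.64 against gld2-ccf1 (23 lower) and -2.11 against wt (26 lower), beside overall shares called lower of 7.34%, 20.0% and 21.5%. Its count of lower genes in gld2-parn1 against gld2 was between 14 and 25 under the alternatives tried, and 22 without both replicates 3.

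**Figure D2:**
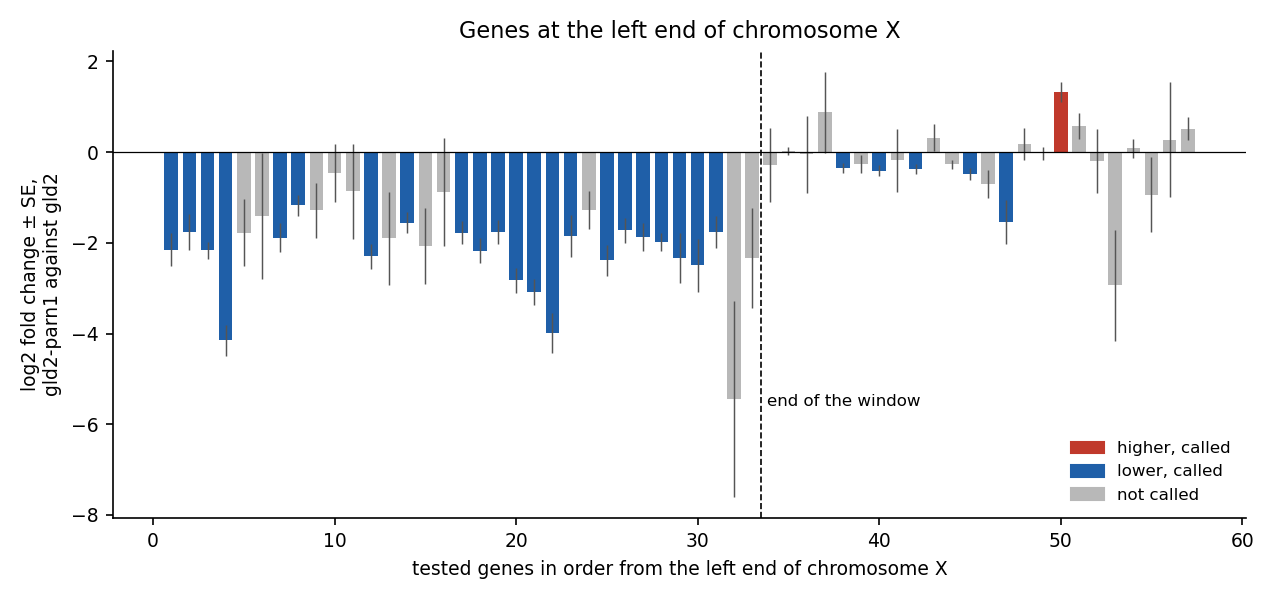
Tested genes in order from the left end of chromosome X (x axis, gene rank) with their log2 fold change of gld2-parn1 against gld2 and its SE (y axis, bars and whiskers). All 33 genes left of the dashed line are negative, 22 of them called lower (blue), and the 24 genes to its right have a median of -0.19.

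The largest gain among genes averaging at least 5 CPM was that of txdc-12.2 (WBGene00018656, chromosome X, 2074450 to 2075944), which by its name encodes a thioredoxin domain protein. It had 582, 541 and 502 counts in gld2-parn1 against 0, 1 and 0 in gld2, a ratio of 1727 (95% exact counting interval 309.5 to 68240). It had 0 counts in all libraries of gld2-ccr4 and gld2-ccf1 but 6.74 ± 0.494 CPM in wt, where it was lower than in gld2-parn1 (14.8 ± 0.479 CPM, log2 fold change 1.13, SE 0.22, adjusted p = 0.000397). Its paralog txdc-12.1 stood at 26.8, 22.3 and 17.7 CPM in gld2-parn1 and 21.8, 18.3 and 18.1 CPM in gld2, and the groups overlapped (adjusted p = 0.643).

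A mitochondrial import gene and an RNase H gene were higher in gld2-parn1 than in each of the other genotypes. The gene timm-17B.2 (WBGene00017069, chromosome IV, 8396648 to 8397954), named for a subunit of the inner membrane import complex, stood at 124, 136 and 213 CPM in gld2-parn1 and 11.2, 13.4 and 12.3 CPM in gld2 (log2 fold change 3.68, SE 0.16, adjusted p = 6.77e-11). The groups were far apart, and replicate 3 of gld2-parn1 was the highest. Its paralog timm-17B.1 stood at 108, 118 and 104 CPM in gld2-parn1 and 112, 108 and 115 CPM in gld2 (log2 fold change -0.02, SE 0.07, adjusted p = 0.881). The gene rnh-1.3 (WBGene00007303, chromosome I, 9710088 to 9710745), of the family that degrades RNA in RNA-DNA hybrids, stood at 36.8, 30.1 and 31.8 CPM in gld2-parn1 and 6.54, 4.81 and 6.78 CPM in gld2 (log2 fold change 2.44, SE 0.19, adjusted p = 6.66e-08). Both rises were also called against gld2-ccr4 (log2 fold changes 3.97 and 2.58), gld2-ccf1 (4.54 and 3.02) and wt (4.08 and 2.89).

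Further genes with large gains were phyh-1, R07C3.13, T08G3.4 and an unannotated locus. The gene phyh-1 (WBGene00013999, IV), named for phytanoyl-CoA hydroxylase of peroxisomal fatty acid breakdown, stood at 23.8, 22.4 and 26.5 CPM in gld2-parn1 and 3.57, 6.50 and 8.76 CPM in gld2 (log2 fold change 1.95, SE 0.24, adjusted p = 5.03e-05). R07C3.13 was at 12.1, 9.10 and 14.7 CPM in gld2-parn1 and 0.838, 3.81 and 5.25 CPM in gld2, and the pseudogene T08G3.4 was at 13.3, 9.18 and 14.4 CPM in gld2-parn1 and 1.58, 4.76 and 5.17 CPM in gld2. For all 3 genes the lowest gld2 library was replicate 1, and the groups did not overlap. The identifier WBGene00016780, which has no record in the annotation used, stood at 7.61, 9.95 and 7.79 CPM in gld2-parn1 and 2.04, 2.20 and 1.72 CPM in gld2 (log2 fold change 2.09). C17F4.7 stood at 72.3, 50.5 and 12.1 CPM in gld2-parn1 and 5.27, 5.50 and 5.87 CPM in gld2 (log2 fold change 3.02, SE 0.61, adjusted p = 0.0122). Its call was lost with the 6 libraries alone and without gld2 replicate 1 or gld2 replicate 2. The calls of R07C3.13 and T08G3.4 were lost without gld2-parn1 replicate 1 or gld2-parn1 replicate 3, that of R07C3.13 also with the 6 libraries alone, and that of T08G3.4 without both replicates 3. F36H12.9 (IV) was the only gene with 0 counts in all libraries of gld2 and at least 30 in each of gld2-parn1: it had 41, 37 and 33 counts and was at least 39.3-fold higher, taking 3 counts over the gld2 group as the floor. It was at 0.854 ± 0.601 CPM in gld2-ccr4 and at 0 counts in gld2-ccf1 and wt.

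**Figure D3:**
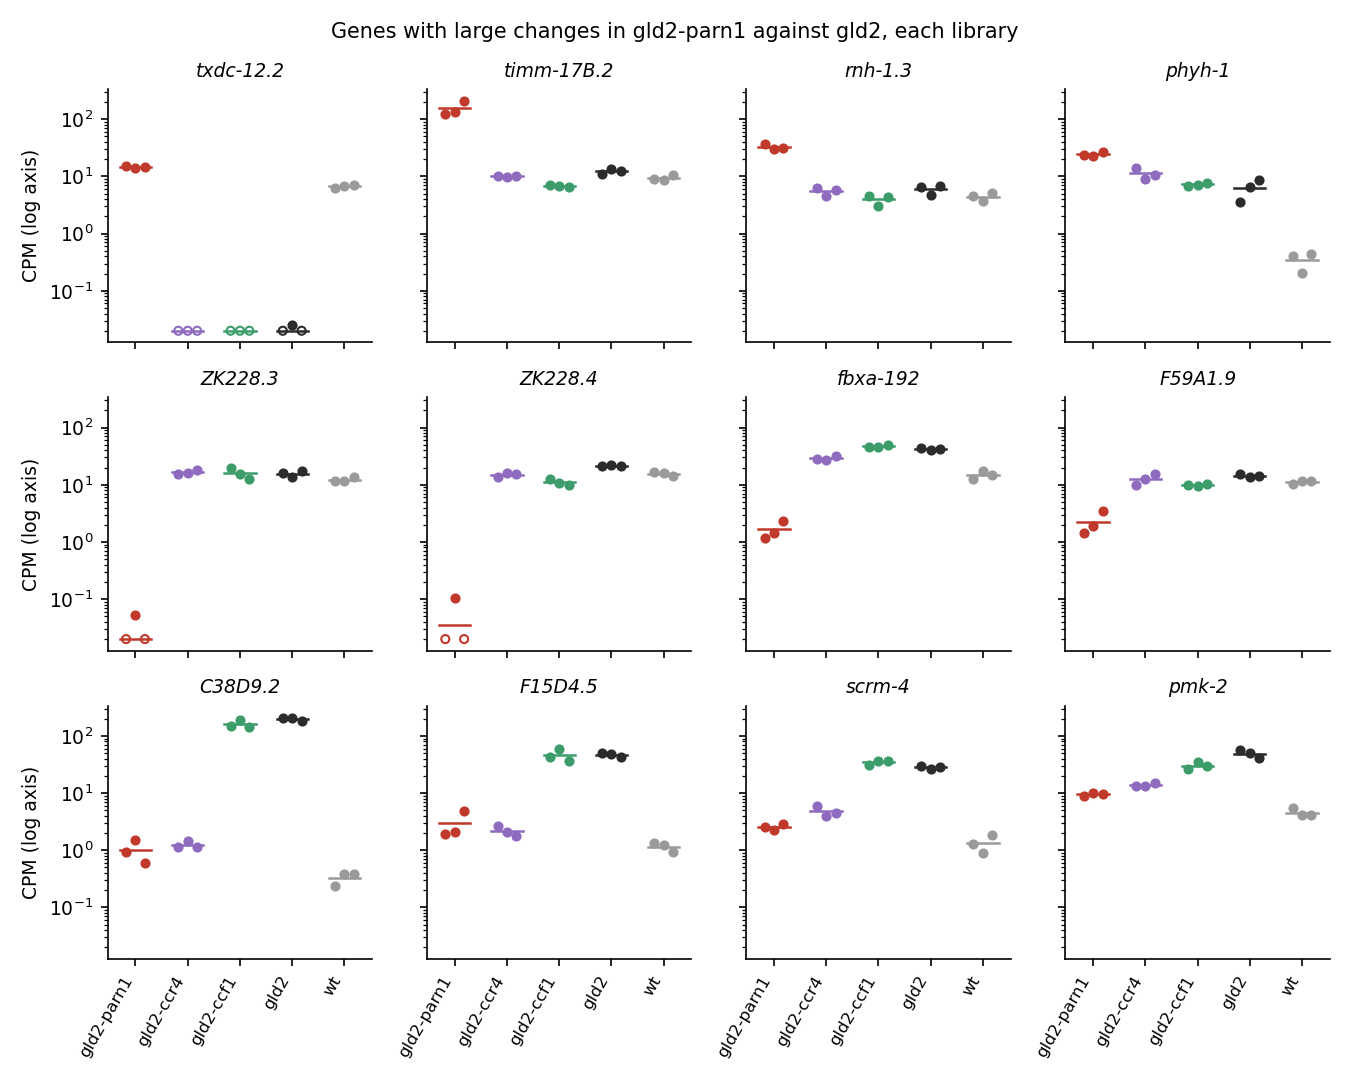
CPM (y axes, log scale) of 12 genes with large changes, in each library of the 5 genotypes (x axes). Points are libraries, lines are group means, and open circles are libraries under 0.02 CPM, drawn at that level as are means below it. The top row shows genes higher in gld2-parn1 than in gld2, the middle row genes lower in gld2-parn1 than in every other genotype, and the bottom row genes lower in gld2-parn1 and gld2-ccr4 than in gld2-ccf1 and gld2.

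For several of the strongest falls the level was also low in gld2-ccr4 and in wt. C38D9.2 (WBGene00008010, chromosome V, 17567150 to 17571742) stood at 0.945, 1.48 and 0.588 CPM in gld2-parn1 and 203, 204 and 180.4 CPM in gld2 (log2 fold change -7.59, SE 0.22, adjusted p = 1.79e-11). It averaged 1.25 ± 0.198 CPM in gld2-ccr4, 161 ± 27.8 in gld2-ccf1 and 0.334 ± 0.0877 in wt (SD, n = 3). The difference between gld2-parn1 and gld2-ccr4 was -0.30 on the log2 scale (SE 0.27, adjusted p = 0.516). F15D4.5 (II) was likewise low in 2 of the double knock-outs, with 1.92, 2.06 and 4.94 CPM in gld2-parn1, 2.15 ± 0.457 in gld2-ccr4, 46.0 ± 12.02 in gld2-ccf1 and 49.4, 47.9 and 42.5 in gld2 (log2 fold change against gld2 -3.98, SE 0.32). The gene scrm-4, of the phospholipid scramblase family, stood at 2.55, 2.30 and 2.85 CPM in gld2-parn1 and 29.8, 26.7 and 28.2 CPM in gld2 (log2 fold change -3.46, SE 0.19, adjusted p = 3.50e-10). It was lower in gld2-parn1 than in gld2-ccr4 as well, at 2.57 ± 0.276 against 4.82 ± 0.957 CPM (log2 fold change -0.91, adjusted p = 0.00327). F40D4.13 and W03F9.4 (both V) fell by 4.66 and 2.65 on the log2 scale against gld2. All of these comparisons share the gld2-parn1 libraries, and those with gld2 share the gld2 libraries.

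The neighbours pmk-1, pmk-2 and pmk-3 on chromosome IV, which encode p38 MAP kinases of the stress and pathogen response and are read from a shared operon, all fell. The gene pmk-2 stood at 8.82, 10.2 and 9.79 CPM in gld2-parn1 and 55.7, 50.3 and 40.9 CPM in gld2 (log2 fold change -2.35, SE 0.15, adjusted p = 1.50e-09). The gene pmk-3 stood at 18.2, 17.6 and 17.6 CPM in gld2-parn1 and 53.1, 52.95 and 51.0 CPM in gld2 (log2 fold change -1.56, SE 0.09, adjusted p = 4.41e-10). The groups were far apart for both, and the gld2-parn1 libraries were nearly equal. For pmk-1 the levels were 13.3, 13.1 and 15.2 CPM in gld2-parn1 and 42.3, 32.1 and 24.9 CPM in gld2 (log2 fold change -1.26, SE 0.17, adjusted p = 0.000113), and for the adjoining islo-1 the log2 fold change was -1.16 (adjusted p = 0.00271). The kinase genes were lower in gld2-parn1 than in gld2-ccr4 too, by 0.68, 0.53 and 0.41 on the log2 scale for pmk-1, pmk-2 and pmk-3 (adjusted p = 0.0107, 0.0172 and 0.00402). In wt pmk-2 and pmk-3 stood at 4.55 ± 0.746 and 10.3 ± 0.453 CPM, below gld2-parn1 (adjusted p = 5.51e-06 and 4.27e-07), while pmk-1 was at 16.3 ± 2.13 CPM (log2 fold change of gld2-parn1 against wt -0.24, adjusted p = 0.261).

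ZK354.2, C08F11.7 and pud-4 were also lower in gld2-parn1 than in all 3 other mutants. ZK354.2 (IV) stood at 2.55, 3.07 and 3.59 CPM in gld2-parn1, against 19.0, 25.3 and 28.6 CPM in gld2 (log2 fold change -2.99, SE 0.25, adjusted p = 7.70e-07). In wt it averaged 0.255 ± 0.205 CPM, below gld2-parn1 (log2 fold change 3.63, adjusted p = 2.43e-07). C08F11.7 (IV) stood at 1.94, 1.72 and 1.53 CPM in gld2-parn1, against 10.1, 9.96 and 11.04 CPM in gld2 (log2 fold change -2.58, SE 0.21). Neither pair of groups overlapped. The genes pud-3 and pud-4, named for proteins more abundant in a daf-2 insulin receptor mutant, were the tested members of their list, and both fell. The gene pud-4 had 7.19, 8.73 and 3.73 CPM in gld2-parn1 and 61.5, 36.8 and 44.1 CPM in gld2, and pud-3 had 24.3, 23.7 and 11.2 CPM in gld2-parn1 and 144, 92.8 and 112 CPM in gld2 (log2 fold changes -2.85 and -2.56, adjusted p = 0.0105 and 0.0321). Against gld2-ccf1 pud-3 did not pass (log2 fold change -0.61, adjusted p = 0.489). Both calls against gld2 ended without replicate 3 of both groups and without gld2-parn1 replicate 3 alone, and that of pud-3 ended without any other single library as well. The copies are alike enough that reads could be shared.

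In all, 160 of the 827 higher genes and 177 of the 827 lower genes were called in the same direction against gld2, gld2-ccr4 and gld2-ccf1. The whole-table shares called higher were 4.90%, 5.95% and 17.2% in these comparisons, and the shares called lower 4.90%, 7.34% and 20.0%. All 3 use the gld2-parn1 libraries, so they are not independent. Direct tests of gld2-parn1 against gld2-ccr4 called 2244 genes (13.3%), against gld2-ccf1 6267 (37.1%) and against wt 8506 (50.4%). With somatic scaling the higher share of the called genes was 64.4% against gld2-ccr4 and 42.9% against wt, in place of 44.8% and 57.3%. In the libraries labelled gld2-ccf1 the gene ccf-1 was not reduced but averaged 29460 ± 16370 CPM, so directions against that genotype rest on its label.

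Genes of the intracellular pathogen response were among the called, all of them higher. This response of the intestine and epidermis follows infection by microsporidia and viruses in C. elegans, and the pals family holds both its regulators and many of its induced genes. Of 33 tested pals genes, 9 were higher and 0 lower (background 4.90% each way), with a median log2 fold change of 1.16. Of 22 other genes of the response, 7 were higher and 0 lower, with a median of 0.96. Scaled on somatic genes the medians were 0.81 and 0.60, under which 3 of the other response genes were called lower. The pals count was 5 without both replicates 3 and 1 with the stricter filter on low counts, which few members pass.

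The largest rise was that of pals-14 (WBGene00009061, chromosome I, 13139122 to 13141898), at 4.41, 3.97 and 6.67 CPM in gld2-parn1 and 0.0718, 0.0512 and 0 CPM in gld2. The ratio was 115.8 (95% exact counting interval 49.3 to 358.1, adjusted p = 1.73e-07). The neighbours pals-37, pals-38 and pals-39 on chromosome V rose together, pals-39 at 2.94, 3.04 and 3.06 CPM in gld2-parn1 and 0.0479, 0.205 and 0.139 CPM in gld2 (log2 fold change 4.51, SE 0.55). For both genes every gld2-parn1 library was above every gld2 library. The genes pals-6, pals-33 and pals-30 had log2 fold changes of 3.84, 2.99 and 4.34. Levels were low: the summed level of the family was 61.5, 57.2 and 67.3 CPM in gld2-parn1 and 35.5, 31.1 and 27.7 CPM in gld2, without overlap. The call of pals-37 was lost without gld2-parn1 replicate 3, gld2 replicate 2 or gld2 replicate 3, and those of pals-37 and pals-38 without both replicates 3.

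Regulators of the response did not show a change that passed. The gene pals-22, a repressor of the response, stood at 5.67, 4.45 and 4.12 CPM in gld2-parn1 and 5.84, 3.61 and 3.53 CPM in gld2 (log2 fold change 0.13, SE 0.24, adjusted p = 0.794). Its antagonist pals-25 was at 4.93, 5.58 and 5.67 CPM in gld2-parn1 and 5.96, 5.97 and 5.004 CPM in gld2 (adjusted p = 0.885). The receptor gene drh-1, of the RIG-I family that senses viral RNA, was at 158, 150.2 and 146 CPM in gld2-parn1 and 164, 152 and 151 CPM in gld2 (adjusted p = 0.724). The libraries of the groups overlapped for all 3 regulators.

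Other response genes that rose were skr-4, a SKP1-related ubiquitin ligase gene, and ddn-1, Y6E2A.5, C53A5.9, T08E11.1, rcs-1 and F26F2.4. The gene skr-4 stood at 10.9, 9.63 and 13.3 CPM in gld2-parn1 and 4.41, 4.76 and 6.42 CPM in gld2 (log2 fold change 1.12, SE 0.18, adjusted p = 0.000556). The gene ddn-1 was at 4.33, 5.82 and 8.64 CPM in gld2-parn1 and 0.766, 0.615 and 0.278 CPM in gld2 (log2 fold change 3.48, SE 0.50), in a run of 7 neighbouring called genes on chromosome V. C53A5.9 had 0 counts in gld2 and was at least 25.9-fold higher. Against gld2-ccr4, 8 pals genes and 5 others were higher in gld2-parn1 and 0 lower (background 5.95% higher). Against gld2-ccf1 the lists leaned the other way, with 1 pals gene higher in gld2-parn1 and 4 lower (median -0.45). Of the other response genes 1 was higher and 12 lower (median -1.33, background 17.2% higher and 20.0% lower). In that comparison pals-14, pals-39 and pals-6 gave log2 fold changes of -0.01, -0.44 and -0.88 (adjusted p = 0.992, 0.432 and 0.113). The medians of gld2-ccf1 against gld2 were 1.37 and 2.03. The call of F26F2.4 was lost when any single library other than gld2-parn1 replicate 2 was left out, and that of rcs-1 without gld2-parn1 replicate 1 or gld2 replicate 2 and under somatic scaling.

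**Figure D4:**
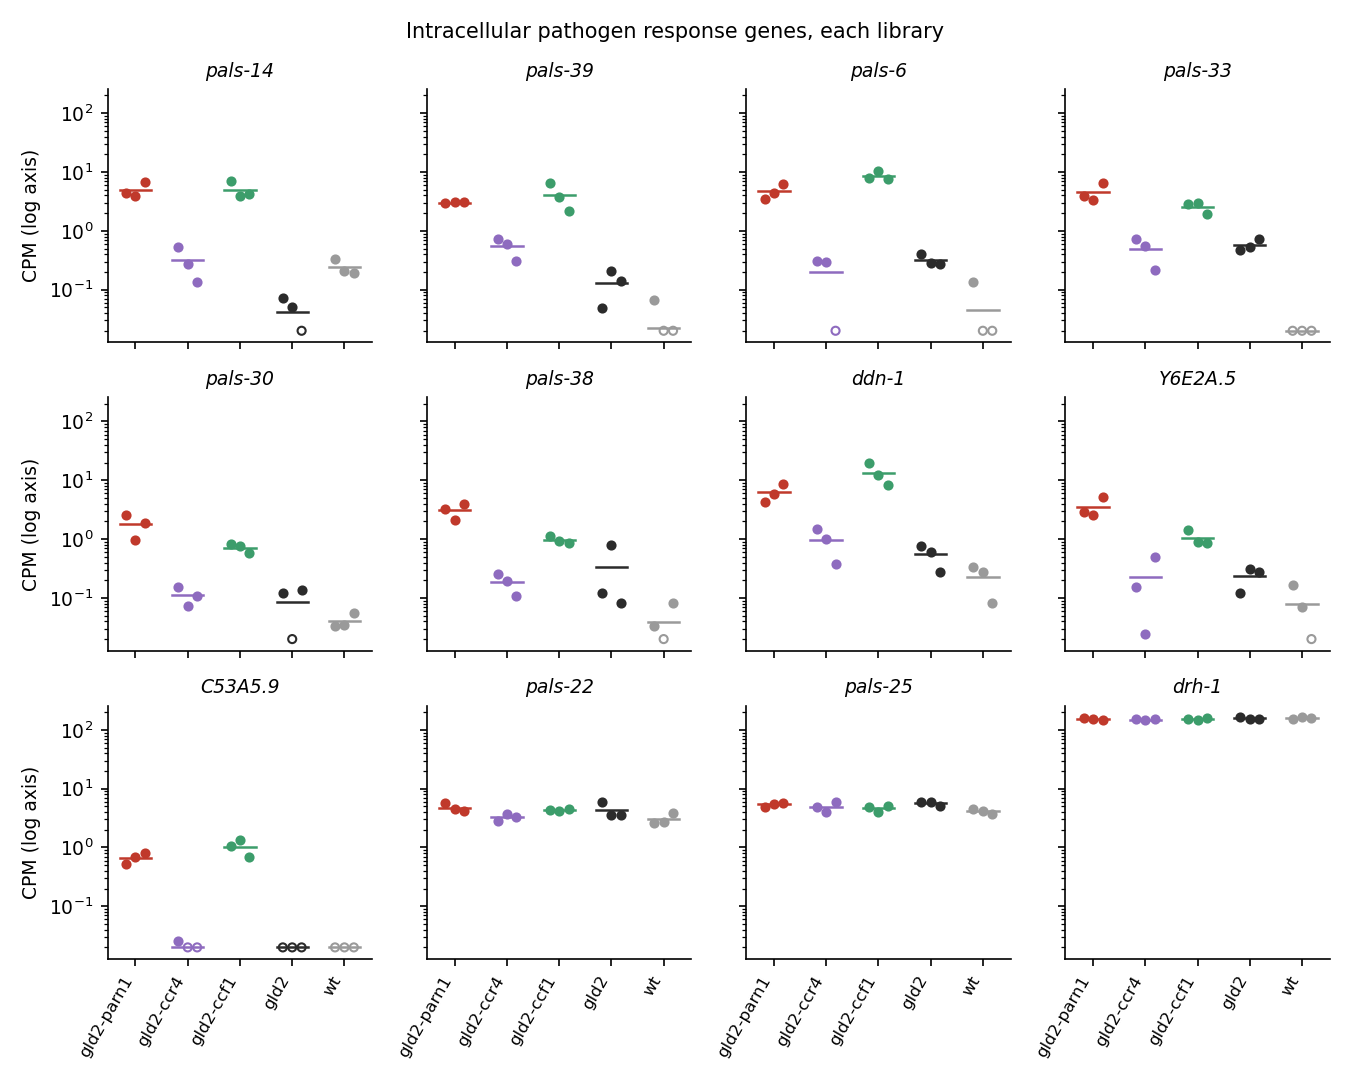
CPM (y axes, log scale) of 12 intracellular pathogen response genes in each library of the 5 genotypes (x axes). Points are libraries, lines are group means and open circles are libraries under 0.02 CPM, drawn at that level as are means below it. The first 9 genes are higher in gld2-parn1 than in gld2, while pals-22, pals-25 and drh-1 overlap between these groups.

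The longest lists of called genes were those of muscle, collagen and intestine, beside a background of 4.90% called in each direction. Of 52 tested muscle genes 19 were higher and 1, the actin-interacting gene unc-78, lower, and 46 had positive log2 fold changes (median 0.45, against 0.02 for all genes). The summed level of the list was 9474, 8205 and 10960 CPM in gld2-parn1 and 6853, 6677 and 7033 CPM in gld2, without overlap. The myosin light chain gene mlc-1 stood at 134, 113 and 143 CPM in gld2-parn1 and 89.8, 88.7 and 79.5 CPM in gld2 (log2 fold change 0.60, SE 0.09, adjusted p = 0.000221). The body wall myosin heavy chain gene unc-54 was at 1922, 1629 and 2363 CPM in gld2-parn1 and 1223, 1198 and 1278 CPM in gld2 (log2 fold change 0.68, SE 0.16, adjusted p = 0.0188). The twitchin gene unc-22 and the perlecan gene unc-52 had log2 fold changes of 0.64 and 1.02. Muscle genes are part of the somatic scaling reference; under it their median was 0.09, with 2 higher and 3 lower. Without both replicates 3, 4 were called higher and the median was 0.36; the count was 9, 8, 11 and 8 without gld2-parn1 replicate 1, gld2-parn1 replicate 3, gld2 replicate 1 and gld2 replicate 2. The calls of unc-22, unc-52, unc-54 and unc-78 ended without gld2-parn1 replicate 1 or 3 or gld2 replicate 1 or 2, that of unc-22 also without gld2 replicate 3 and that of unc-78 without gld2-parn1 replicate 2.

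Cuticle collagen genes of the col family rose in 20 of 106 cases and fell in 1, col-53 (background 4.90% each way, median 0.53). The summed level was 16210, 10830 and 13670 CPM in gld2-parn1 and 8580, 8807 and 9051 CPM in gld2. The adult collagen gene col-19 stood at 892, 569.5 and 713 CPM in gld2-parn1 and 234, 294 and 333 CPM in gld2 (log2 fold change 1.33, SE 0.22, adjusted p = 0.00385). The largest log2 fold change among the called was that of col-129, at 79.3, 15.6 and 46.1 CPM in gld2-parn1 and 3.57, 2.36 and 5.004 CPM in gld2 (log2 fold change 3.69, SE 0.87, adjusted p = 0.0259). In col-129, as in col-81 (42.2, 6.93 and 21.96 CPM in gld2-parn1 and 1.63, 1.33 and 2.73 CPM in gld2), replicate 1 of gld2-parn1 was highest and replicate 2 lowest, and the groups did not overlap. The abundant col-140 rose by 0.58, while for col-119 the log2 fold change was 0.39 (adjusted p = 0.153). Under somatic scaling, whose reference holds this family, the median was 0.16 with 18 higher and 6 lower. Without both replicates 3, 5 were called higher, with a median of 0.55, and the count was 6 to 12 without any single library other than gld2-parn1 replicate 2. Collagen genes resemble each other, and how reads that match several genes were counted is not stated. The calls of col-129, col-81 and col-140 were lost when any single library other than gld2-parn1 replicate 2 was left out. Set directly against gld2-ccr4, gld2-parn1 had 3 col genes higher and 6 lower (median 0.03, background 5.95% and 7.34%). Against gld2-ccf1 it had 20 higher and 12 lower (median 0.47, background 17.2% and 20.0%). The median of gld2-ccr4 against gld2 was 0.46.

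Of 47 intestinal genes 17 were higher and 3 (mtl-1, gem-4 and dod-22) lower (background 4.90% each way). Their median was 0.14, and -0.21 under somatic scaling, where the median of all genes was -0.32. The peptide transporter gene pept-1 stood at 43.4, 38.6 and 48.1 CPM in gld2-parn1 and 19.7, 21.7 and 22.02 CPM in gld2 (log2 fold change 1.04, SE 0.10, adjusted p = 1.50e-06). The intermediate filament gene ifb-2 was at 60.8, 51.2 and 61.3 CPM in gld2-parn1 and 34.0, 31.5 and 37.5 CPM in gld2 (log2 fold change 0.75, SE 0.09, adjusted p = 3.03e-05). Groups overlapped for neither gene. The gut regulator gene elt-2 had a log2 fold change of 0.83 (adjusted p = 0.0334), and the abundant protease gene cpr-6 of -0.12 (adjusted p = 0.267). Under somatic scaling 7 intestinal genes were higher and 13 lower, beside 290 higher and 3899 lower of all 16888 genes. The call of elt-2 was lost without gld2-parn1 replicate 1 or 3, without gld2 replicate 2 or 3 and under somatic scaling. The count of higher intestinal genes was 11 without gld2-parn1 replicate 1 and 10 without both replicates 3. Set directly against gld2-ccr4, gld2-parn1 had 2 intestinal genes higher and 18 lower (median -0.30, background 5.95% and 7.34%). In the same comparison pept-1 was 0.71 lower on the log2 scale (adjusted p = 8.90e-05). Muscle genes were 2 higher and 11 lower against gld2-ccr4 (median -0.19, with the same background).

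Genes of lipid and sugar metabolism rose in part, beside a background of 4.90% called in each direction. Among 29 lipid breakdown genes 9 were higher and 1, the lipase gene lipl-3, lower (median 0.01). The acyl-CoA synthetase gene acs-1 stood at 137, 95.9 and 125 CPM in gld2-parn1 and 61.7, 72.2 and 57.2 CPM in gld2 (log2 fold change 0.90, SE 0.12, adjusted p = 0.000181), and hacd-1, for a hydroxyacyl-CoA dehydrogenase, was at 73.4, 55.3 and 70.8 CPM in gld2-parn1 and 38.2, 40.3 and 38.4 CPM in gld2 (log2 fold change 0.77). The lipase gene lipl-5 varied widely, at 53.4, 23.7 and 9.29 CPM in gld2-parn1 and 8.19, 5.63 and 8.79 CPM in gld2, and its call (adjusted p = 0.0415) was lost when any single library other than gld2-parn1 replicate 3 was left out. Of 22 genes of fatty acid synthesis and modification 5 rose, the elongase genes elo-2, elo-5, elo-6 and elo-8 and the synthase gene fasn-1, and the desaturase gene fat-1 fell (median 0.24). The gene elo-2 stood at 93.6, 56.2 and 74.6 CPM in gld2-parn1 and 27.6, 32.6 and 28.9 CPM in gld2 (log2 fold change 1.33, SE 0.18, adjusted p = 0.000682). Under somatic scaling the medians of the lipid breakdown and fatty acid lists were -0.34 and -0.11. The lipid breakdown count was 5 without gld2-parn1 replicate 1, gld2 replicate 1 or gld2 replicate 2, and the fatty acid count was 3 without any of these or gld2-parn1 replicate 3. Somatic scaling gave 5 higher and 6 lower lipid breakdown genes and 4 higher and 4 lower fatty acid genes. Of all 16888 genes it called 290 higher and 3899 lower. The calls of lipl-3, fasn-1 and fat-1 were lost without gld2-parn1 replicate 1, gld2-parn1 replicate 3 or gld2 replicate 1, and that of elo-6 without any single library other than gld2-parn1 replicate 2. Set against gld2-ccr4, 2 fatty acid genes were higher in gld2-parn1 and 7 lower (median -0.24, background 5.95% and 7.34%). Against gld2-ccf1 5 were higher and 14 lower (median -0.45, background 17.2% and 20.0%).

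Of 22 glycolytic genes 5 were higher and 0 lower (background 4.90% each way, median 0.15, or -0.19 under somatic scaling). The glyceraldehyde-3-phosphate dehydrogenase gene gpd-3 (WBGene00001685) stood at 156, 120.5 and 154 CPM in gld2-parn1 and 45.2, 44.6 and 40.1 CPM in gld2 (log2 fold change 1.73, SE 0.15, adjusted p = 5.90e-06), and its near-identical neighbour gpd-2 at 108, 78.9 and 106 CPM in gld2-parn1 and 57.6, 53.4 and 47.3 CPM in gld2 (log2 fold change 0.89, SE 0.16). No library overlapped for either gene, though reads cannot be assigned between such copies with certainty. The others called were the pyruvate kinase genes pyk-1 and pyk-2 and the aldolase gene aldo-2, at log2 fold changes of 0.29, 0.43 and 0.32, of which pyk-1 and aldo-2 had the opposite sign under somatic scaling. The enolase gene enol-1 had a log2 fold change of 0.06 (adjusted p = 0.601). The gene gpd-3 was also higher than in gld2-ccr4 and gld2-ccf1, by 1.24 and 0.95 on the log2 scale (adjusted p = 8.77e-05 and 0.000165). Of 19 sphingolipid genes sptl-2, sptl-3 and ttm-5 rose (median 0.14, or -0.19 under somatic scaling), the serine palmitoyltransferase gene sptl-2 at 17.03, 13.7 and 13.0 CPM in gld2-parn1 and 7.52, 6.76 and 4.62 CPM in gld2 (log2 fold change 1.21, SE 0.20). Without both replicates 3, 2 glycolytic genes and 1 sphingolipid gene were called higher. The sphingolipid count was also 1 without gld2-parn1 replicate 1, gld2-parn1 replicate 3 or gld2 replicate 2. Somatic scaling gave 2 higher and 6 lower glycolytic genes, beside 290 higher and 3899 lower of all 16888 genes. Set against gld2-ccr4, 1 sphingolipid gene was higher in gld2-parn1 and 4 lower (median -0.16, background 5.95% and 7.34%). Against gld2-ccf1 2 were higher and 11 lower (median -0.48, background 17.2% and 20.0%).

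Most called genes of epidermal defence and stress lists were lower, beside a background of 4.90% called in each direction. Of 13 epidermal antimicrobial peptide genes nlp-28, nlp-29 and nlp-34 fell and 0 rose, and 12 had negative log2 fold changes (median -1.28). The gene nlp-29 stood at 2.39, 1.80 and 2.85 CPM in gld2-parn1 and 5.41, 10.04 and 6.84 CPM in gld2 (log2 fold change -1.66, SE 0.40, adjusted p = 0.0153), without overlap. The log2 fold change of nlp-27 was 0.35 (adjusted p = 0.372). The count was 0 without gld2-parn1 replicate 1, without gld2-parn1 replicate 2 and without gld2 replicate 2. Set against gld2-ccr4, 0 epidermal peptide genes were called in either direction (median 0.08). Against gld2-ccf1 1 was higher and 0 lower (median -0.18, background 17.2% and 20.0%). The median of this list was -0.99 for gld2-ccr4 against gld2 and 1.68 for gld2 against wt. Of 32 other immune effector genes thn-2, catp-3 and dod-22 fell and irg-8 rose by 0.32, a sign that turned under somatic scaling. The thaumatin-like gene thn-2 stood at 22.6, 27.1 and 26.2 CPM in gld2-parn1 and 54.4, 51.9 and 48.4 CPM in gld2 (log2 fold change -1.03, SE 0.10, adjusted p = 2.69e-06). Against gld2-ccr4 19 of these 32 genes were lower in gld2-parn1 (background 7.34%) and 0 higher (median -1.06). The calls of catp-3, dod-22 and irg-8 were each lost in at least 5 of the 6 fits that left out 1 library, while that of thn-2 held in all of them.

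Of 41 oxidative, metal and xenobiotic stress genes 5 fell and 0 rose (background 4.90% each way, median -0.14). The cytochrome P450 gene cyp-14A5 stood at 4.04, 4.21 and 3.62 CPM in gld2-parn1 and 17.8, 11.5 and 9.40 CPM in gld2 (log2 fold change -1.71, SE 0.21, adjusted p = 2.62e-05). The others were cyp-35A3 at -1.29, the metallothionein gene mtl-1 at -1.45, the glutathione transferase gene gst-7 at -0.42 and the thioredoxin reductase gene trxr-1 at -0.22 on the log2 scale. Of 31 chaperone genes hsp-70 and dnj-19 fell, at -2.25 and -0.27 (adjusted p = 0.016 and 0.0401), a count near the background of 4.90% lower. C-type lectin genes, mostly secreted sugar-binding proteins, went both ways, with 6 higher and 3 lower of 125 (background 9.79% in either direction), among them clec-10 at 1.47 and clec-222 at -1.62. The stress count was 3 without both replicates 3 and 16 under somatic scaling. There the median of all genes was -0.32, and 3899 of 16888 were called lower. The chaperone count was 0 without gld2-parn1 replicate 1, gld2-parn1 replicate 3, gld2 replicate 2 or gld2 replicate 3, without both replicates 3 and with the stricter filter, and dnj-19 was not called by DESeq2 either. The lectin counts were 1 higher and 2 lower without gld2-parn1 replicate 1 or gld2 replicate 1, 2 and 2 without gld2-parn1 replicate 3 or both replicates 3, and 3 and 2 without gld2 replicate 2. DESeq2 gave 13 and 5, no filter 11 and 6, the 6 libraries alone 12 and 5, and somatic scaling 1 and 17.

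Genes of the germline lists were called in both directions, beside a background of 9.79% in either direction. Of 42 genes of piRNA production and silencing, the Argonaute genes wago-4 and csr-1 rose and ekl-1 and nrde-1 fell (median 0.03). The gene wago-4, whose protein helps pass silencing to offspring, stood at 167, 156 and 174 CPM in gld2-parn1 and 123.4, 119 and 131 CPM in gld2 (log2 fold change 0.41, SE 0.08, adjusted p = 0.00271). The gene csr-1, for the Argonaute that targets expressed germline mRNAs, stood at 550.3, 549 and 591 CPM in gld2-parn1 and 453, 462 and 471 CPM in gld2 (log2 fold change 0.29, SE 0.06), with the opposite sign under somatic scaling. Neither pair of groups overlapped. The Piwi gene prg-1 was at 262, 249 and 271 CPM in gld2-parn1 and 236, 211 and 226 CPM in gld2, and did not pass (log2 fold change 0.22, SE 0.08, adjusted p = 0.0741). The gene henn-1, for the methyltransferase that protects trimmed piRNA ends, was at -0.03 on the log2 scale and did not pass (SE 0.07, adjusted p = 0.867). The calls of ekl-1 and nrde-1 were lost with RLE scaling, DESeq2 and no filter, without both replicates 3 and without any single library other than gld2-parn1 replicate 2. Those of wago-4 and csr-1 were lost under somatic scaling, and that of csr-1 also without both replicates 3.

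Among 51 meiotic chromosome genes 3 fell and 0 rose (median -0.03). The repair gene rad-50 stood at 327, 334 and 329 CPM in gld2-parn1 and 595, 519 and 564 CPM in gld2 (log2 fold change -0.76, SE 0.06, adjusted p = 1.80e-07), and spo-11, which makes the breaks that start recombination, at 72.9, 82.8 and 73.4 CPM in gld2-parn1 and 106, 95.8 and 101 CPM in gld2 (log2 fold change -0.40, SE 0.08). Both were without overlap, and syp-1 of the synaptonemal complex was called at -0.24. Against gld2-ccr4 rad-50 was higher, by 0.25 on the log2 scale (adjusted p = 0.0147). Of 19 germ granule genes meg-4 fell by 0.60 and pgl-1 rose by 0.37. Of 33 germline fate genes cpb-2 and cpb-3 rose and fog-1 and mog-5 fell. Of 23 poly(A) enzymes and partners only the poly(U) polymerase gene pup-3 was called, at 16.2, 17.4 and 15.6 CPM in gld2-parn1 and 26.7, 21.8 and 23.8 CPM in gld2 (log2 fold change -0.56, SE 0.12, adjusted p = 0.00745). The calls of syp-1 and mog-5 were lost when any single library was left out, and mog-5 was not called by DESeq2. Those of cpb-2, cpb-3 and pgl-1 were lost under somatic scaling, and no germline fate gene was higher without gld2-parn1 replicate 3 or gld2 replicate 1. The call of fog-1 was lost without gld2-parn1 replicate 1, gld2 replicate 2 or gld2 replicate 3, and those of spo-11, pgl-1 and pup-3 without both replicates 3. Somatic scaling gave 20 lower meiotic, 10 lower piRNA, 10 lower germline fate and 8 lower germ granule genes, with 0 higher in each list. Over all 16888 genes that scaling called 3899 lower and 290 higher.

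Of 39 oocyte and maternal genes 0 were called in the 15-library edgeR fit or by DESeq2, with a median of 0.00. Other edgeR fits called 3 higher (no filter), 1 higher and 1 lower (6 libraries alone) and 1 lower (replicate block, or without rRNA and mitochondrial genes). At an unadjusted p under 0.05, 3 were higher and 1 lower. With somatic scaling 11 were called lower, beside 3899 of all 16888 genes. Their summed level was 10640, 10950 and 11850 CPM in gld2-parn1 and 11070, 11190 and 11310 CPM in gld2. Of 20 eggshell genes gna-2, chs-1, egg-2 and egg-3 rose and cpg-3 fell (background 4.90% each way). The gene gna-2, which supplies the sugar for chitin, stood at 201, 188 and 188 CPM in gld2-parn1 and 142, 141 and 136 CPM in gld2 (log2 fold change 0.46, SE 0.08, adjusted p = 0.00124). The chitin synthase gene chs-1 was at 587, 522 and 545 CPM in gld2-parn1 and 492, 397 and 397 CPM in gld2 (log2 fold change 0.36). The libraries overlapped for neither gene. The signs of egg-2 and egg-3, at 0.30 and 0.29, turned under somatic scaling. No eggshell gene was higher under somatic scaling, 2 were without gld2-parn1 replicate 1 and 1 without both replicates 3, and the call of cpg-3 was lost when any single library was left out.

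Sperm genes leaned upward with few calls, beside a background of 4.90% called in each direction. Of 26 major sperm protein genes 25 had positive log2 fold changes (median 0.55, or 0.19 under somatic scaling), and msp-3 and msp-49 were called higher. The gene msp-49 stood at 24.6, 22.8 and 33.4 CPM in gld2-parn1 and 12.9, 14.6 and 15.8 CPM in gld2 (log2 fold change 0.90, SE 0.24, adjusted p = 0.0236), without overlap. Of 46 other sperm genes 6 were higher, among them the sperm phosphatase gene gsp-4 (0.63, SE 0.17) and spe-26 (0.58, SE 0.15), and fog-1 was lower (median 0.36, or 0.01 under somatic scaling). No member of either list was called higher without both replicates 3 or without gld2-parn1 replicate 3, and at most 1 of each without gld2-parn1 replicate 1, gld2 replicate 1 or gld2 replicate 2. Without gld2-parn1 replicate 2, 5 and 3 were called, and DESeq2 called 12 and 9. Major sperm protein genes are near-identical, so values of single members are uncertain. Against gld2-ccr4, 12 major sperm protein genes and 9 other sperm genes were higher in gld2-parn1 (background 5.95% higher), with medians of 0.93 and 0.51. Against gld2, 11 and 9 were called higher with no filter, 14 each with the 6 libraries alone, and 0 under somatic scaling.

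Of 40 histone genes 6 were higher and 2 lower, beside a background of 4.90% in each direction. The largest change among those averaging at least 5 CPM was in his-16 (WBGene00001890), at 15.3, 18.1 and 17.02 CPM in gld2-parn1 and 93.1, 76.2 and 78.5 CPM in gld2 (log2 fold change -2.30, SE 0.16, adjusted p = 5.88e-08). The groups were far apart. It was lower than in gld2-ccr4 and gld2-ccf1 as well (-0.96 and -1.79). The gene his-63 rose, at 307, 290.5 and 296 CPM in gld2-parn1 and 227, 226 and 212 CPM in gld2 (log2 fold change 0.42, SE 0.07). The second fall was that of WBGene00001899, with 1, 0 and 0 counts in gld2-parn1 and 26, 10 and 22 in gld2. Histone genes exist in near-identical copies and reads may be shared between them. No histone gene was higher under somatic scaling, 3 were without both replicates 3, and the call of WBGene00001899 was lost without any single library other than gld2 replicate 2.

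Ribosomal protein genes (82 tested) and vitellogenins (6 tested) had 0 called members in the 15-library edgeR fit or by DESeq2, with medians of 0.02 and 0.30. At an unadjusted p under 0.05, 3 ribosomal protein genes were higher and 2 lower, and 0 vitellogenins. With somatic scaling 27 ribosomal protein genes were called lower, beside 3899 of all 16888 genes. With the 6 libraries alone 2 ribosomal protein genes were higher and 1 lower, and with no filter 1 each. Of the vitellogenins 5 were higher with no filter and 1 with the 6 libraries alone. For the lists that follow, the background was 4.90% called in each direction. Of 41 nuclear-encoded and 12 mitochondrially encoded respiratory chain genes 1 each was called, both higher. The mitochondrial gene, MTCE.31, stood at 1512, 1551 and 1225 CPM in gld2-parn1 and 616, 679.7 and 906 CPM in gld2 (log2 fold change 0.96, SE 0.19, adjusted p = 0.00919), without overlap. The share of mitochondrial counts moved with it, and the part of that share in this result was not tested. Cell cycle genes had 1 lower and 0 higher of 44. Neuronal genes had 4 higher and 4 lower of 69 (median 0.36), with a background of 9.79% in either direction. The counts were 1 and 1 without gld2-parn1 replicate 1 or 3, 2 and 1 without gld2 replicate 2, 2 and 2 without gld2 replicate 1, 0 and 1 without both replicates 3, and 0 and 6 under somatic scaling, where the median was 0.00. Called members included the synaptic genes unc-13 at 0.71 and unc-10 at -0.98. Somatic gonad genes had 6 higher and 3 lower of 40, with the laminin gene lam-3 at 62.9, 66.6 and 65.1 CPM in gld2-parn1 and 114, 106 and 115 CPM in gld2 (log2 fold change -0.79, SE 0.14). The somatic gonad count of higher genes was between 0 and 2 without gld2-parn1 replicate 1 or 3 or gld2 replicate 1 or 2. Hypodermis genes had 0 of 32 called in the 15-library edgeR fit (2 higher and 4 lower at an unadjusted p under 0.05, 2 each by DESeq2), coelomocyte genes 2 lower of 9, and early embryo genes 3 higher and 2 lower of 32. The nspd and nsp sperm peptide list and the lysozyme list had 0 calls among 29 and 13 genes in that fit, 1 higher and 1 lower each at an unadjusted p under 0.05, and 1 and 0 by DESeq2. The vitamin B12 and methionine cycle lists had 2 higher and 1 lower of 15 each, and the other collagen list (dpy, rol, sqt, bli and lon) had 1 higher and 2 lower of 18. Counts in these smaller lists moved with the settings: without both replicates 3 the early embryo, coelomocyte and nuclear-encoded respiratory chain lists had 0 higher genes and 1, 0 and 0 lower, and no filter gave 7 higher vitamin B12 and 6 higher methionine cycle genes. Under somatic scaling 20 cell cycle genes, 12 nuclear-encoded respiratory chain genes and 9 hypodermis genes were called lower, beside the same 3899 of 16888 genes.

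**Figure D5:**
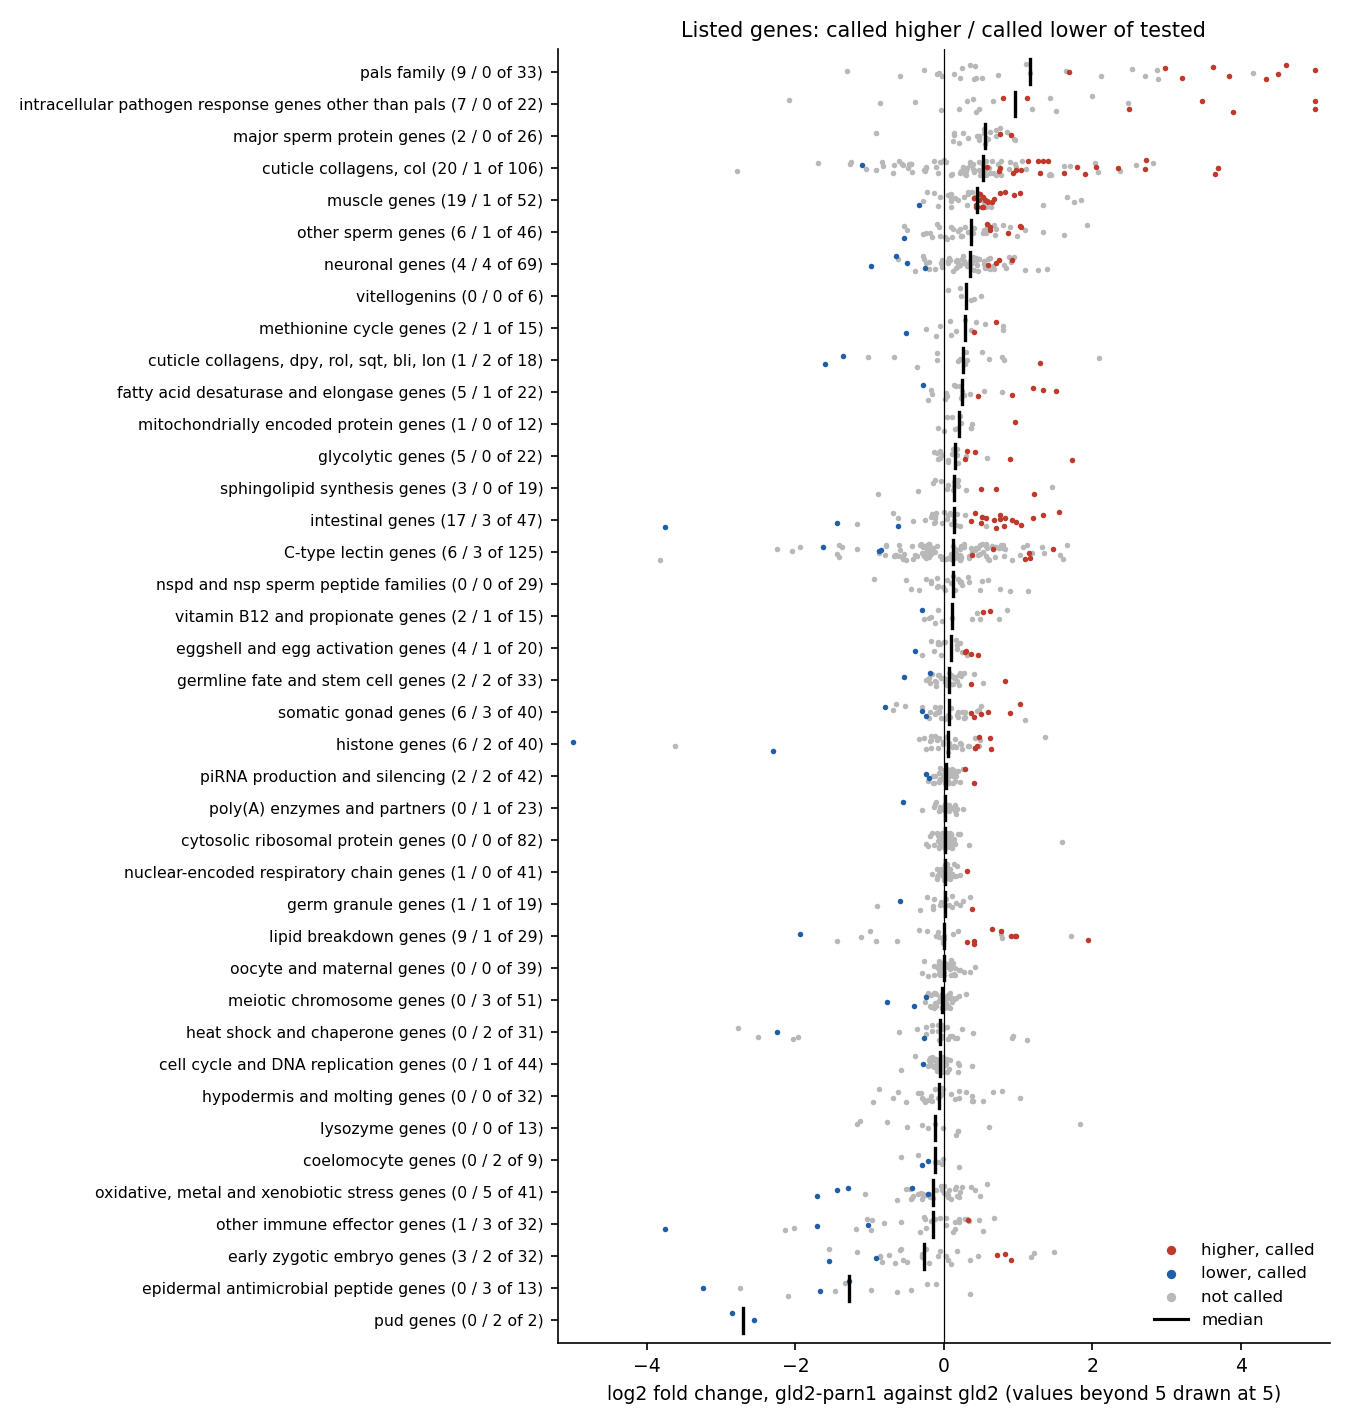
Log2 fold changes of gld2-parn1 against gld2 (x axis) for the tested members of 40 gene lists (rows), sorted by the list's median (black line). Points are genes, red and blue ones are called higher and lower, and the counts stand beside each name. The pals family has the highest median at 1.16 and the pud genes the lowest at -2.71, while most germline lists lie near 0.00.

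Calls were spread over gene classes and chromosomes. Protein-coding genes were called in 10.1% of 15367 cases (788 higher, 771 lower) and pseudogenes in 10.4% of 762 (32 higher, 47 lower), against 0.843% of 356 ncRNA genes and 2.26% of 133 snoRNA genes. By nuclear chromosome, the share called ran from 8.68% on III to 11.5% on X, with 110 higher and 141 lower genes on X. Within 1 Mb of parn-1 on chromosome V, 43 of 415 genes were called (10.4%), 22 higher and 21 lower, beside 9.79% overall.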

How the data were processed

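RNA from whole adult C. elegans was sequenced in 15 libraries of 5 genotypes. Per the submitters' processing notes, the build WBcel235 and the tools featureCounts, STAR 2.5.2b, DESeq2 1.18.1, FastQC and Subread 1.4.6-p4 were used, with no roles given. How reads matching several genes or either strand were counted is not given in the sources used here. The deposited table holds the authors' raw counts per gene for 46739 genes, of which 46484 matched an Ensembl WBcel235 gene record and 255 did not. A second table of normalised values was not used.

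Counts were fitted with edgeR 4.0.16 (R 4.3.3, limma 3.58.1): genes kept by filterByExpr (16888), TMM scaling, robust quasi-likelihood fit with 1 mean for each of the 5 genotypes (10 residual degrees of freedom, common biological coefficient of variation 0.178), and Benjamini-Hochberg adjustment over all 16888 genes. SE is the absolute log2 fold change divided by the root of F. CPM use TMM-scaled library sizes. Totals of the 6 libraries ran from 34.7 to 39.4 M counts. Correlations between replicates (log2 CPM, across genes, which are not independent replicates) were 0.979 to 0.982. Exact Poisson-based intervals (95%) and the floor of 3 counts over a group cover counting error only. The fit was tested on simulated counts for this comparison, where 200 genes were changed. Of those changed by 2 on the log2 scale in either direction 100% were recovered, with 82% and 84% of those changed by 1 and -1. The changed genes were drawn from those above 1 CPM in gld2, and all genes were simulated with the coefficient of variation 0.178. Whether these rates hold for genes at lower levels, or for genes that vary more between replicates, was not tested.

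Replicate numbers in the titles were checked as pairs: deviations of same-numbered libraries from their group means correlated at -0.00857, 0.0094 and 0.0263, so the main fit did not pair them. With 3 libraries a group these values cannot show whether same-numbered libraries were handled together. Replicate 3 had the most nuclear rRNA in both groups. The comparison, the members and the 40 gene lists were chosen with earlier results of these data known; 32 listed symbols matched no gene. Genes are named by rule: the targeted genes; 12 called genes in each direction, by size of change, among those averaging at least 5 CPM without overlap; the 5 each with the smallest p; genes at 0 counts in one group and at least 30 in every library of the other; for each list the members with the smallest p and the highest level; and genes called against all 3 mutants. The X block, the runs of neighbours and the paralogs timm-17B.1 and txdc-12.1, with pals-37 and others beside them, were named after their values were seen. Alternatives were DESeq2 1.42.0, RLE and somatic scaling, no filter or at least 5 CPM in 3 libraries, the 6 libraries alone, a replicate block, leaving out nuclear rRNA and mitochondrial genes, the libraries above 4% nuclear rRNA, or each library in turn.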

Additional observations from a re-analysis of the deposited data

How the results depend on the processing

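All 15 alternatives left most called genes in the same direction: 1654 of the 1654 called genes kept their sign under 11 of them, 1653 without rRNA and mitochondrial genes and 1608 under somatic scaling, and 1319 and 1637 of those still tested did with the stricter filter and with the 6 libraries alone. These genes were called in the same libraries, so a kept sign is no independent support. Of the 1654, 521 were still called without both replicates 3, and 738 to 1224 without 1 library. Somatic scaling kept 1096 of these calls and DESeq2 1563. Numbers of calls moved more than signs. Gld2-parn1 against gld2 gave 1388 higher and 1168 lower genes with the 6 libraries alone, 1316 and 877 with DESeq2, 290 and 3899 with somatic scaling, and 238 and 302 without both replicates 3. Leaving out 1 library gave 355 to 711 higher and 404 to 622 lower genes, with the fewest without gld2-parn1 replicate 3. The fit with a replicate block called 857 higher and 771 lower, and whether same-numbered libraries were pairs is not known. RLE scaling gave 872 and 635, no filter 1218 and 934, the stricter filter 813 and 662.

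Against gld2-ccr4, 535 genes were higher and 788 lower without both replicates 3, 501 lower with somatic scaling, and 565 to 1009 higher and 811 to 1224 lower without 1 library. Against wt, 2923 were higher with the stricter filter, which tests fewer genes. Under somatic scaling the log2 fold changes of kat-1 (-0.0404), pyk-1 (-0.0576), aldo-2 (-0.0371), irg-8 (-0.0350), csr-1 (-0.0598), egg-2 (-0.0439) and egg-3 (-0.0586) were negative. Of 137 named genes called, 61 lost the call without both replicates 3, 33 under somatic scaling, 14 to 50 without 1 library, and 1 to 8 under the others. The cause of these changes was not tested. At 34.7 to 39.4 M counts per library, a gene with 0 counts in a group is bounded only by the floor of 3 counts over that group.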

Other observations

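Called genes lay side by side in 8 runs of at least 4 tested neighbours with the same direction, counted after the values were seen. Besides the runs at the left end of X, around fbxa-192 and around pmk-2, there was a run of 7 higher genes on chromosome V from ZC196.2 to B0507.8 (8739436 to 8762961). B0507.8 stood at 4.80, 5.64 and 7.35 CPM in gld2-parn1 and 0.263, 1.15 and 0.695 CPM in gld2 (log2 fold change 3.08, SE 0.52, adjusted p = 0.0037, edgeR). It averaged 0.709 ± 0.427 CPM in gld2-ccr4 and 14.6 ± 7.07 CPM in gld2-ccf1, above gld2-parn1 (log2 fold change of gld2-parn1 against gld2-ccf1 -1.304, adjusted p = 0.0381). Its neighbour ddn-1 had the same order of genotypes. The pseudogene B0507.15 of the same run had 15, 11 and 11 counts in gld2-parn1 and 0 in all libraries of gld2, gld2-ccr4, gld2-ccf1 and wt, at least 13.1-fold higher than in gld2. The run of lower genes from ZC317.7 to grl-18 (chromosome V, 5468645 to 5488866) held the chemoreceptor-like genes srg-65 and srg-66 at log2 fold changes of -1.81 and -1.48.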
